A study of Homo sapiens with 18 samples.

Results

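Dye-diluted tumor cells of 2 human osteosarcoma lines, 143B and MNNG/HOS, were compared across the transcriptome on Affymetrix 3′ expression arrays. The comparison took 9 of the 18 arrays of the series, 5 of 143B_Low cells (tumors 143B-1251 to 143B-1255) and 4 of MNNG_Low cells (tumors MNNG-1231 to MNNG-1233 and MNNG-1235), chosen by their titles. Both lines were transduced with the green fluorescent protein ZsGreen and grown as orthotopic bone tumors. Cells were sorted by PKH26, a lipophilic membrane dye that is shared out between daughter cells at division, so a cell with little dye left has divided more often than one that kept it. The Low groups are the cells with little dye, which the labels call bulk tumor cells, and 700000 of them were sorted per tumor. The High groups are the dye-retaining cells of the same tumors, with 3 arrays of 143B_High, of which a pair hold pooled tumors, and 4 of MNNG_High. They served here as other arrays of the same pair of lines. No treatment and no change to a single gene separates the groups, each group holds tumors of 1 established line, and the labels do not describe the host. The labels do not say how far the tumors of a line are independent. The fit used all 18 arrays, among them 2 lung arrays of MNNG/HOS (MNNG_Lung), and treated arrays of the same tumor as independent. The p-values therefore measure the spread between arrays within a group, pooled over the 5 groups of the series.

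143B and MNNG/HOS are both known as derivatives of the HOS osteosarcoma line. 143B was obtained from a thymidine kinase deficient HOS derivative by transformation with a viral ras oncogene, and MNNG/HOS from HOS cells treated with the alkylating carcinogen MNNG, a line in which the TPR-MET fusion oncogene was discovered. RAS proteins relay growth signals from receptor tyrosine kinases to the ERK kinases, which switch on transcription factors of the ETS and AP-1 families, and the MET receptor feeds into the same pathway. Both lines form bone tumors that can spread to the lung.

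Arrays of a group were alike, with Pearson correlations over all probe sets of 0.989 to 0.995 within 143B_Low and 0.990 to 0.994 within MNNG_Low, against 0.963 to 0.973 for pairs of 1 array from each group. The osteoblast markers SP7, ALPL and IBSP lay under 5.36, the median log2 signal of the table and the filter value used here, on all 9 arrays, while the other 4 osteoblast markers in the table, RUNX2, COL1A1, COL1A2 and SPARC, passed the filter. Of 13 macrophage markers measured, 8 lay under that value on all 9 arrays, and 0 of the 8 tested differed between the groups (limma, adjusted p threshold of 0.05). The GAPDH 3′ minus 5′ signal, a measure of RNA quality, was 0.43 to 0.85 in 143B_Low and 0.34 to 0.41 in MNNG_Low, groups that did not overlap (two-sided exact permutation test, p = 0.0159, adjusted p = 0.0847 over 16 array measures, with 0.0079 the smallest p possible). The ACTB 3′ minus 5′ signal shifted the same way, at 1.737 to 2.824 in 143B_Low and 1.377 to 1.739 in MNNG_Low. Its groups just overlapped (same exact permutation test, p = 0.0397, adjusted p = 0.159). All 143B arrays carry 1 date-like tag in their descriptions. MNNG-1231 of the Low arrays shares another tag with all MNNG_High arrays, and the remaining MNNG_Low arrays carry yet another. Tag and line therefore cannot be told apart, and within MNNG/HOS the tag mostly goes with the dye fraction.

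The question was how far the dye-diluted cells of the lines differ. Of 14418 genes tested 4158 were called (28.8%), which means an adjusted p under 0.05 in a limma fit over all arrays. In 143B_Low 2074 of them (14.4%) were higher and 2084 (14.5%) were lower than in MNNG_Low. The 2 directions were balanced, and the median log2 difference of all genes tested was -0.04. More than 2-fold changes numbered 797 higher (5.53%) and 624 lower (4.33%), 1421 in all (9.86%). Past 4-fold there were 226 higher and 136 lower, and past 8-fold 80 higher and 53 lower. For 5517 genes (38.3%) the 5 values of 143B_Low and the 4 of MNNG_Low did not overlap, 3862 of them called. A difference is written below as 143B_Low minus MNNG_Low on the log2 scale with the standard error of the fit, n = 5 and 4, and an adjusted p is limma's after Benjamini-Hochberg adjustment over all genes tested. A fold is that difference taken out of the log scale. Where a group's mean lies under 5.36, near the background of the array, its direction is measured but its size is uncertain. This held for the lower group of 394 of the 1421 genes.

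**Figure D1:**
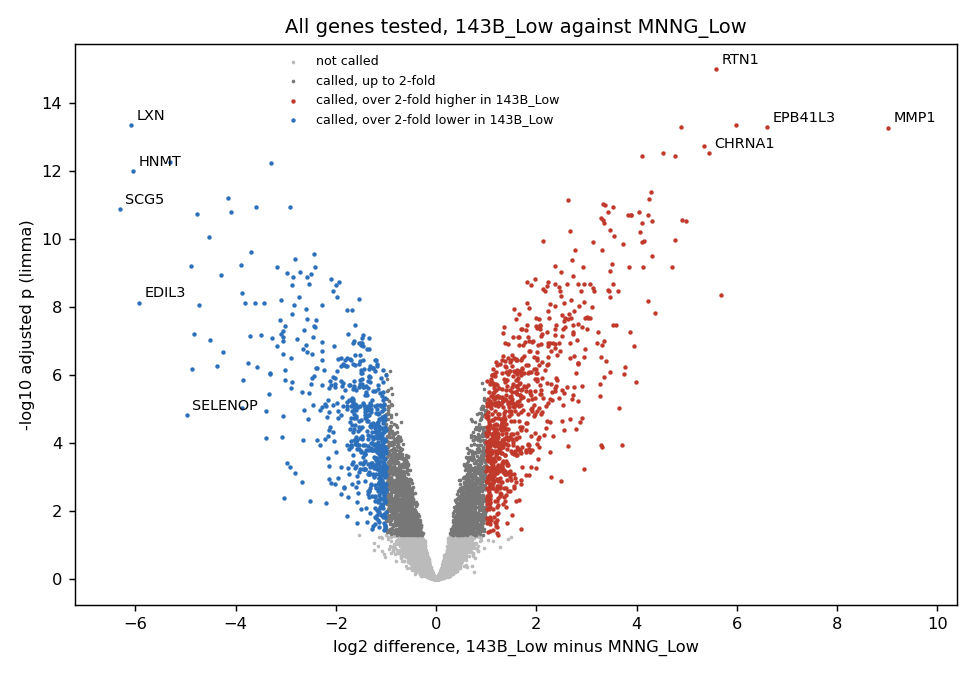
Each point is 1 of the 14418 genes tested, with the log2 difference of 143B_Low minus MNNG_Low on the x axis and -log10 of limma's adjusted p on the y axis. Both arms of the plot are filled, with 797 genes called more than 2-fold higher in 143B_Low and 624 more than 2-fold lower, and MMP1 lies farthest to the right at 9.02.

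The gene with the largest difference was MMP1, interstitial collagenase, an enzyme that cuts fibrillar collagen. Its log2 signal was 11.94, 13.81, 12.66, 12.62 and 12.63 in tumors 143B-1251 to 143B-1255, against 3.59, 3.61, 3.71 and 3.95 in MNNG-1231 to MNNG-1233 and MNNG-1235, the order kept for every gene below. All 143B_Low arrays were bright and all MNNG_Low arrays were near background, a difference of 9.02 ± 0.28 (adjusted p = 5.3e-14). EPB41L3, which encodes a protein 4.1 family member that links the membrane to the cytoskeleton, had 9.56, 9.82, 9.14, 9.78 and 9.51 in 143B_Low and 3.48, 2.85, 2.82 and 2.70 in MNNG_Low. CCND2, cyclin D2, which activates the G1 kinases CDK4 and CDK6, had 10.35, 9.83, 9.84, 10.34 and 10.38 in 143B_Low and 4.25, 4.11, 4.09 and 4.22 in MNNG_Low. Neither gene had overlapping groups, with differences of 6.60 ± 0.20 and 5.98 ± 0.18 (adjusted p = 5.06e-14 and 4.48e-14).

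The other genes among the 15 largest increases named many kinds of protein. RTN1, a reticulon of the endoplasmic reticulum, was higher by 5.58 ± 0.13 and had the smallest p of these 15 (adjusted p = 1.01e-15). CHRNA1, the alpha subunit of the muscle acetylcholine receptor, was higher by 5.45 ± 0.19, NTRK2, the receptor for the neurotrophin BDNF, by 4.77 ± 0.26, and TIE1, a receptor tyrosine kinase best known from endothelium, by 4.53 ± 0.16. ESM1, a secreted proteoglycan also named endocan, was higher by 4.36 ± 0.34 and BCL2A1, an inhibitor of apoptosis, by 4.91 ± 0.24. PDZRN3, a ubiquitin ligase, was higher by 5.68 ± 0.40 and was the most variable of these within 143B_Low besides ESM1, at 7.64 in 143B-1253 and 8.80 to 9.70 in the other tumors. TMEM47, UBE2QL1, PASD1, EPB41L4A and AFF3 were higher by 5.34 ± 0.18, 4.99 ± 0.25, 4.89 ± 0.15, 4.77 ± 0.17 and 4.70 ± 0.29. In all 15 the MNNG_Low mean lay under 5.36, so these are genes measured well in 143B_Low and near background in MNNG_Low.

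The largest decrease was that of SCG5, secretogranin V, a chaperone of the proprotein convertase PC2. It had 4.99, 4.74, 5.09, 4.64 and 4.99 in 143B_Low and 10.99, 11.63, 11.24 and 10.95 in MNNG_Low, a difference of -6.31 ± 0.29 (adjusted p = 1.28e-11). LXN, latexin, an inhibitor of carboxypeptidases, had 3.73, 3.21, 3.34, 3.23 and 3.22 in 143B_Low and 9.35, 9.60, 9.46 and 9.29 in MNNG_Low. HNMT, which inactivates histamine by methylation, had 3.39, 3.28, 3.26, 3.37 and 3.30 in 143B_Low and 9.36, 9.38, 9.94 and 8.79 in MNNG_Low. The 3 genes were at or under background on all 143B_Low arrays and bright on all MNNG_Low arrays, and LXN and HNMT were lower by 6.08 ± 0.18 and 6.05 ± 0.23 (adjusted p = 4.48e-14 and 1.01e-12).

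EDIL3, a secreted ligand of integrin alphaV beta3, was at -5.93 ± 0.43 and GALC, the lysosomal galactosylceramidase, at -5.30 ± 0.20. S100A4, a calcium-binding protein widely studied in metastasis, had 9.07, 8.07, 10.19, 8.57 and 9.04 in 143B_Low and 13.48, 13.57, 13.59 and 13.37 in MNNG_Low, and its difference was -4.51 ± 0.40. It was lower but well above 5.36 in 143B_Low. The 143B_Low mean was under that value in 13 of the 15 largest decreases, with S100A4 and EDIL3 as the exceptions. SELENOP, a selenium transport protein, was at -4.97 ± 0.67, with 7.03, 9.78, 9.23 and 6.29 in MNNG_Low, which made it the most scattered of the 15 within that group. KHDRBS3 and MBNL3, both RNA-binding splicing regulators, were at -4.89 ± 0.30 and -4.37 ± 0.44. NPTX2, neuronal pentraxin, was at -4.87 ± 0.50, MAP9, a microtubule-associated protein, at -4.83 ± 0.41, and LAPTM5, a lysosomal membrane protein best known from blood cells, at -4.77 ± 0.22. HMCN1, a large extracellular matrix protein, was at -4.72 ± 0.35, TNFRSF10D, a decoy receptor for the death ligand TRAIL, at -4.30 ± 0.27 and the pseudogene PDCD6P1 at -4.53 ± 0.24.

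**Figure D2:**
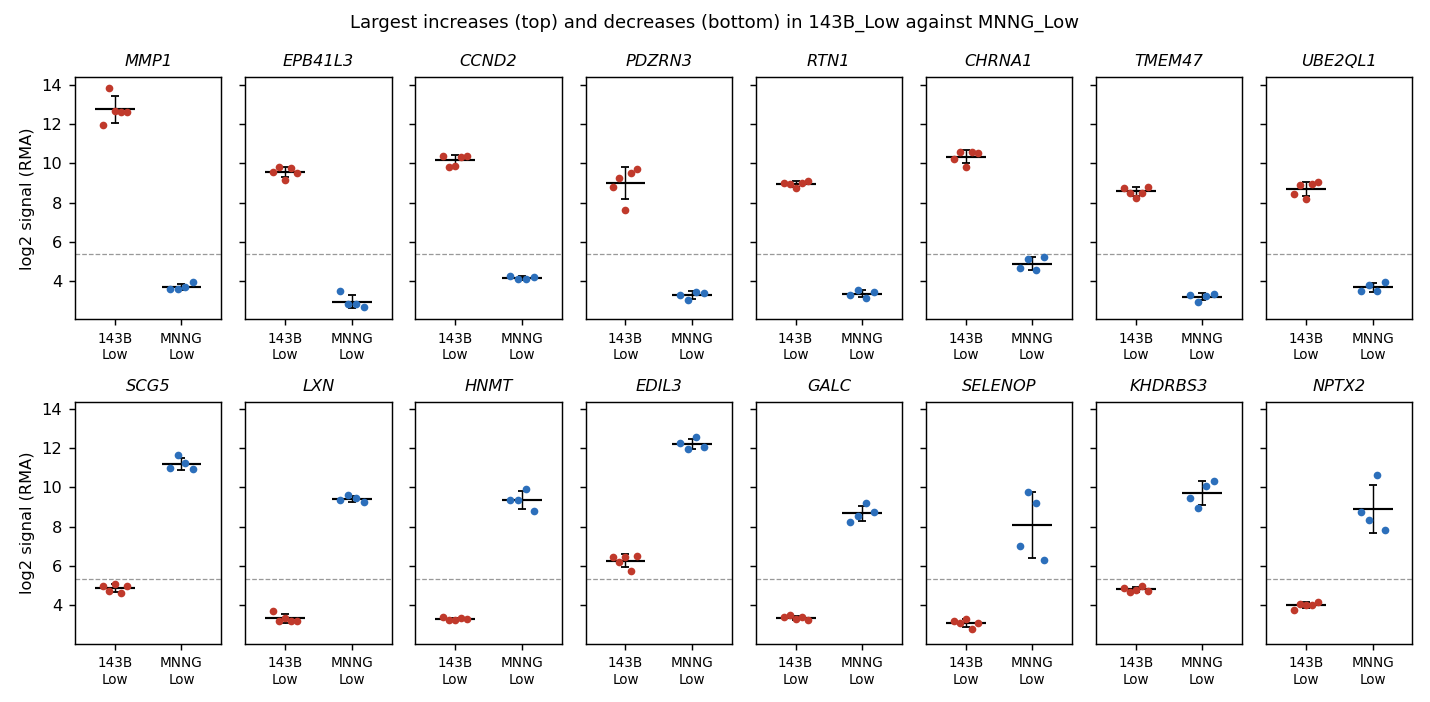
Log2 signal of the 8 genes with the largest increase (top row) and the 8 with the largest decrease (bottom row), 1 point per array, with 143B_Low to the left of MNNG_Low in each panel. Bars give the mean and SD (n = 5 and 4) and the dashed line is the filter value of 5.36. No panel has overlapping groups, and the lower group lies under the dashed line in all panels but that of EDIL3, where 143B_Low averaged 6.27.

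The sequence upstream of such genes was compared by its CG content. For 173 genes called more than 2-fold higher in 143B_Low with an MNNG_Low mean under 5.36, the 250 bases before the start held a median of 20 CG dinucleotides, as many as the 11514 tested genes with a promoter in the RefSeq table (20). For 121 genes called more than 2-fold lower with a 143B_Low mean under 5.36 the median was 10. It was 18 for all 483 genes with a promoter called more than 2-fold lower and 20 for the 639 called more than 2-fold higher. The median was also low, at 9, for the 43 genes called more than 8-fold lower, beside 19.5 for the 56 called more than 8-fold higher. Nearness to background in 143B_Low and size of the decrease were not separated here. The comparison is a description of sequence, since methylation was not measured and the first start listed was taken for each gene. EPB41L3 and HNMT are shown as a CG-rich and a CG-poor case from either direction, with 25 and 2 CG dinucleotides in capitals (RefSeq, GRCh38.p14, chr18:5628992-5629241 on the minus strand and chr2:137964223-137964472 on the plus strand, each read 5′ to 3′ and ending at the base before the start).
EPB41L3: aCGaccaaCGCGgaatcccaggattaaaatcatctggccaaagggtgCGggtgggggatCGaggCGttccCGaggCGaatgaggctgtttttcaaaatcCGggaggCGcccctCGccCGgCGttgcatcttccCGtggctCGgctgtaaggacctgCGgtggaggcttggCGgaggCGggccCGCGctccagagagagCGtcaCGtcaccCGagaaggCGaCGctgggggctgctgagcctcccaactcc
HNMT: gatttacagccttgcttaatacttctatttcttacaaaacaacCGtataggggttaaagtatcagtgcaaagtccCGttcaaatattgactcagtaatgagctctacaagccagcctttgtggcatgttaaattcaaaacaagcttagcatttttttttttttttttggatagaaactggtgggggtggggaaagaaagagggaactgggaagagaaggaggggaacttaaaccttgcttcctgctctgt

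Genes tied to the origin of the lines were examined next. HRAS, a RAS protein, had 9.17, 9.43, 9.37, 9.41 and 9.53 in 143B_Low and 8.35, 8.03, 8.43 and 8.15 in MNNG_Low and was higher by 1.14 ± 0.14 (adjusted p = 3.27e-06). TK1, the cytosolic thymidine kinase that salvages thymidine and that the parent of 143B is known to lack, had 7.06, 6.96, 7.13, 6.86 and 7.27 in 143B_Low and 8.58, 8.62, 8.34 and 8.48 in MNNG_Low. It fell by 1.45 ± 0.13 (adjusted p = 6.65e-08) without overlap of the groups, and its 143B_Low mean stayed above 5.36. MET had 9.77, 10.01, 9.77, 10.06 and 9.83 in 143B_Low and 10.66, 10.51, 10.45 and 11.05 in MNNG_Low, a difference of -0.78 ± 0.23 (adjusted p = 0.0156), and TPR, a nuclear pore protein and the fusion partner of MET, had 9.18, 9.19, 8.76, 9.08 and 8.61 and 9.69, 9.71, 10.06 and 9.98 in the same groups, a difference of -0.90 ± 0.16 (adjusted p = 0.000312). Where the probe sets of MET and TPR lie relative to the fusion point was not examined. These values are therefore not assigned to a fusion or a normal transcript. The call of MET was lost with the mean over its probe sets (difference -0.27, adjusted p = 0.058), with the GAPDH RNA quality measure as a covariate (adjusted p = 0.132) and without MNNG-1235 (adjusted p = 0.0626). HGF, the ligand of MET, at 0.35 ± 0.15 (adjusted p = 0.0975) and the tumor suppressor gene CDKN2A at -0.22 ± 0.11 (adjusted p = 0.142) were not called.

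Target and feedback genes of the RAS-ERK pathway were called more often than the 28.8% of all genes, 19 of 25 tested out of 26 listed, with 13 higher, 6 lower and a median difference of 0.57 beside -0.04 over all genes. ETV5, an ETS transcription factor, had 10.14, 9.85, 9.68, 10.19 and 10.002 in 143B_Low and 8.06, 8.31, 8.06 and 8.33 in MNNG_Low, higher by 1.78 ± 0.15. FOSL1, the AP-1 subunit FRA1, had 10.11, 10.37, 9.98, 9.91 and 10.77 in 143B_Low and 8.86, 8.32, 8.53 and 8.44 in MNNG_Low, higher by 1.69 ± 0.18. Both were higher on every 143B_Low array than on any MNNG_Low array. The ephrin receptor EPHA4 was higher by 1.47 ± 0.18 and CCND1, cyclin D1, by 1.32 ± 0.21, while the transcription factor MYC was at -1.03 ± 0.14 and the cytokine LIF at -1.95 ± 0.27. Against MNNG-1231 alone, the only MNNG_Low array of its tag, 6 members were higher and 2 lower, and CCND1 was no longer called. RAS proteins and their regulators had 2 higher and 5 lower of 13 tested (23 listed, median -0.14). KSR1, a scaffold of the RAF and MEK kinases, was at -2.81 ± 0.16 and the GTPase RRAS at -0.64 ± 0.19, while the kinase MEK1 gene MAP2K1 was higher by 0.87 ± 0.19. The exchange factor SOS2 and the GTPase-activating protein gene RASAL2 were at -0.67 ± 0.19 and -0.54 ± 0.16. SOS2 lost its call without MNNG-1233 (adjusted p = 0.0546), and RASAL2 without 143B-1251, 143B-1253 or MNNG-1235 (highest adjusted p = 0.0711). The probe sets of KSR1 ran from -2.81 to 0.05.

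Receptor tyrosine kinases and their partners had 7 higher and 5 lower of 24 tested (30 listed, median 0.05). EGFR, the receptor for EGF, had 9.92, 9.82, 9.89, 9.74 and 9.30 in 143B_Low and 7.86, 7.43, 7.44 and 8.03 in MNNG_Low, higher by 2.05 ± 0.21 (adjusted p = 4.84e-07), and 5 of its 6 probe sets that passed the filter value had a difference above 0. KIT, the receptor for stem cell factor, was higher by 2.003 ± 0.17. The receptors for PDGF went apart, with PDGFRA higher by 1.70 ± 0.36 and PDGFRB at -2.45 ± 0.21.

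Matrix proteases and their inhibitors had 7 higher and 4 lower of 23 tested (29 listed, median 0.05). Besides MMP1, PLAU, the urokinase that turns plasminogen into plasmin, had 10.97, 11.15, 11.02, 11.07 and 10.89 in 143B_Low and 8.65, 8.31, 8.45 and 8.68 in MNNG_Low, higher by 2.50 ± 0.16 (adjusted p = 8.9e-10). Its receptor gene PLAUR had 10.27, 10.26, 10.58, 10.37 and 10.64 in 143B_Low and 8.76, 8.60, 8.95 and 8.55 in MNNG_Low, higher by 1.71 ± 0.14 (adjusted p = 4.48e-08). Enzyme and receptor were thus both higher in every 143B_Low tumor. MMP10, a stromelysin that can activate collagenases, was higher by 2.55 ± 0.38, with MNNG-1235 at 5.80 and the other MNNG_Low tumors at 4.18 to 4.39. MMP13, another collagenase, went the other way at -2.23 ± 0.23, and so did TIMP1, a tissue inhibitor of these enzymes, at -1.48 ± 0.16. The protease genes therefore did not share 1 direction.

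AP-1 binds a short DNA element, and the letters TGANTCA (its own reverse complement, so both strands are covered) were looked for in the 250 bases before each start. They occurred in 6.60% of 27305 promoters in the RefSeq table and in 4.34% of the 11514 of tested genes. The share was 5.48% of the genes called more than 2-fold higher and 5.38% of those called more than 2-fold lower, so the directions had like shares. Of the protease genes looked up, only MMP10, PLAUR and PLAU had a promoter in the RefSeq table, so MMP1 and MMP13 could not be searched. MMP10 and PLAUR hold 1 match each, 67 and 186 bases before the start, and PLAU holds none in this window. The MMP10 and PLAUR promoters are shown with the match in capitals (RefSeq, GRCh38.p14, chr11:102780629-102780878 and chr19:43670170-43670419, both on the minus strand).
MMP10: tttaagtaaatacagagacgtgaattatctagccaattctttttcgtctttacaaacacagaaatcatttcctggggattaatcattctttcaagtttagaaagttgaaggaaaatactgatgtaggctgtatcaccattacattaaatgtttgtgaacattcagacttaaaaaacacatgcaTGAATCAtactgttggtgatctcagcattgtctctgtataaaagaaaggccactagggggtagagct
PLAUR: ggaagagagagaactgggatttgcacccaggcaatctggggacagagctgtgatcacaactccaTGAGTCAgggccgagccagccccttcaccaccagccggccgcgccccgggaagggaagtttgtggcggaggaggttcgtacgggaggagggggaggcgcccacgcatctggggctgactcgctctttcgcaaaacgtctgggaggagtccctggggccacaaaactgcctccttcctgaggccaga

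Bone lineage genes had 3 higher and 4 lower of 15 tested (25 listed, median -0.19). RUNX2, the transcription factor that commits cells to the osteoblast lineage, had 9.01, 8.64, 8.64, 8.96 and 8.92 in 143B_Low and 10.39, 10.57, 11.09 and 9.97 in MNNG_Low, a difference of -1.67 ± 0.21 (adjusted p = 5.74e-06). COL1A1, a chain of type I collagen, the main protein of bone matrix, had 10.96, 8.73, 11.71, 10.31 and 10.89 in 143B_Low and 13.54, 13.73, 13.43 and 13.51 in MNNG_Low, a difference of -3.03 ± 0.74 (adjusted p = 0.00401). It was uniformly bright in MNNG_Low and scattered in 143B_Low, and it was no longer called against MNNG-1231 alone, where the difference was -3.02 (adjusted p = 0.197), or with the GAPDH RNA quality measure as a covariate, where it was -2.16 (adjusted p = 0.0586). COL1A2, the other chain, was at -2.32 ± 0.38. BMP2, a secreted factor that induces bone, had 8.44, 9.24, 9.54, 8.75 and 9.22 in 143B_Low and 4.83, 5.77, 5.88 and 5.79 in MNNG_Low and was higher by 3.47 ± 0.25 (adjusted p = 5e-09). TNFRSF11B, osteoprotegerin, which restrains osteoclasts, was higher by 2.96 ± 0.57 and SPP1, osteopontin, by 2.49 ± 0.53. The 4 osteoblast markers that passed the filter, RUNX2, COL1A1, COL1A2 and SPARC, were all called lower, and the mean of the marker list was 6.49 to 7.29 in 143B_Low and 7.995 to 8.47 in MNNG_Low (difference -1.26, exact permutation test, p = 0.0079, adjusted p = 0.0847).

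Other matrix genes were divided. Collagens other than type I had 7 higher and 7 lower of 22 tested (31 listed, median -0.07), and all 14 differed more than 2-fold. COL8A1, a short-chain collagen of vessel walls, was higher by 4.31 ± 0.21 and COL12A1, which decorates collagen fibrils, by 1.71 ± 0.25, while COL5A1, which sets fibril diameter, was at -3.11 ± 0.25 and COL18A1, the source of endostatin, at -1.39 ± 0.18. COL27A1 and COL9A3 were higher by 1.48 ± 0.15 and 1.39 ± 0.21. Of 30 other matrix proteins tested (33 listed, median -0.20) 5 were higher and 9 lower. THBS2, thrombospondin 2, an inhibitor of angiogenesis, was higher by 4.06 ± 0.21, and FBLN5 and FBN2, of elastic fibers and microfibrils, were higher by 1.54 ± 0.17 and 1.54 ± 0.25. The basement membrane gene NID2 was at -2.50 ± 0.28, CCN5 at -2.10 ± 0.24 and the collagen-crosslinking oxidase gene LOXL2 at -1.06 ± 0.15. Laminins, the core of basement membranes, had 4 higher and 1 lower of 9 tested (11 listed, median 0.51). LAMA1 was higher by 4.31 ± 0.25 and LAMB3 by 1.83 ± 0.30, LAMA5 by 0.89 ± 0.23 and LAMC3 by 0.52 ± 0.13, while LAMA2 was at -0.98 ± 0.12. With probe sets of the types _x_at and _s_at left out 2 laminins were higher and 1 lower, and LAMC3 was at -0.085.

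In the TGF-beta and BMP pathway 7 were higher and 7 lower of 30 tested (34 listed, median 0.12). The BMP ligand genes BMP7 and BMP6 were higher by 1.46 ± 0.19 and 1.65 ± 0.23, and so were NOG, the BMP antagonist noggin, by 2.44 ± 0.30, and the signal transducer SMAD9 by 1.79 ± 0.30. TGFB1 was at -1.04 ± 0.13 and GDF15, a stress-induced cytokine, at -3.18 ± 0.29. In the Wnt pathway 7 were higher and 3 lower of 28 tested (35 listed, median 0.09). WIF1, a secreted Wnt inhibitor, was higher by 3.83 ± 0.18, the receptors FZD3 and FZD2 by 2.37 ± 0.21 and 0.99985 ± 0.13 and the ligand WNT5A by 1.67 ± 0.19, while the antagonists SFRP2 and DKK2 were at -1.14 ± 0.20 and -2.51 ± 0.62. Inhibitors of the pathway therefore lay on both sides.

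Angiogenic factors had 7 higher and 2 lower of 19 tested (24 listed, median 0.20). ANGPT2, a ligand of the TIE2 receptor that destabilizes vessels, had 9.08, 9.14, 9.05, 9.27 and 8.27 in 143B_Low and 4.72, 4.63, 4.69 and 4.92 in MNNG_Low and was higher by 4.22 ± 0.20 (adjusted p = 1.88e-11). No MNNG_Low array reached the lowest 143B_Low array. PDGFA, EDN1, PDGFD and NRP2 were higher by 1.33 ± 0.13, 1.50 ± 0.23, 1.09 ± 0.17 and 0.87 ± 0.19, and SEMA3C, a guidance factor, was at -3.04 ± 0.26. The insulin-like growth factor axis had 3 higher and 6 lower of 16 tested (17 listed, median -0.10). The mRNA-binding proteins IGF2BP2 and IGF2BP1 were higher by 1.27 ± 0.13 and 0.78 ± 0.15 and the binding protein IGFBP7 by 1.34 ± 0.26, while IGFBP1, IGFBP2 and IGFBP6 were at -2.10 ± 0.45, -0.90 ± 0.20 and -1.14 ± 0.21.

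Of S100 proteins and annexins, calcium-binding proteins of membranes and the cytoskeleton, 8 were lower and 1 was higher of 17 tested (22 listed, median -0.30). After S100A4 the largest were ANXA3 at -3.28 ± 0.29 and ANXA1, an anti-inflammatory annexin, at -2.82 ± 0.56, with S100A3 at -1.01 ± 0.20 and ANXA4 at -0.71 ± 0.14. The exception was S100A16, higher by 1.23 ± 0.16. Keratins and other intermediate filament genes had 4 higher and 4 lower of 13 tested (20 listed, median 0.15). NES, nestin, a filament of progenitor cells, had 6.27, 5.50, 6.86, 6.81 and 6.22 in 143B_Low and 10.23, 10.30, 10.31 and 9.95 in MNNG_Low, a difference of -3.86 ± 0.27 (adjusted p = 3.81e-09), and the neuronal filament gene INA was at -3.08 ± 0.26. The partners KRT8 and KRT18, which polymerize together, went opposite ways at -1.48 ± 0.23 and 1.06 ± 0.17, with KRT15 higher by 2.01 ± 0.20 and KRT19 at -1.21 ± 0.20. Contractile genes had 2 higher and 5 lower of 19 tested (20 listed, median -0.23). MYLK, myosin light chain kinase, was lowest at -3.60 ± 0.16, CALD1, MYL9, CNN1 and TGM2 were at -1.22 ± 0.18, -1.01 ± 0.23, -0.67 ± 0.21 and -1.67 ± 0.24, and ACTA2, smooth muscle actin, was higher by 0.94 ± 0.18. Both group means of CNN1, 4.35 in 143B_Low and 5.03 in MNNG_Low, lay under the filter value, and it was not called without 143B-1251, 143B-1255 or MNNG-1235 (highest adjusted p = 0.102).

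Genes of neural adhesion and of the cell surface had among the larger differences of the lists. Protocadherins, contactins and related genes had 5 higher and 7 lower of 19 tested (27 listed, median -0.14). NCAM1, the neural cell adhesion molecule CD56, had 9.20, 8.84, 8.78, 8.92 and 9.002 in 143B_Low and 5.08, 4.82, 5.58 and 4.74 in MNNG_Low and was higher by 3.89 ± 0.19 (adjusted p = 1.88e-11). ROBO1, a receptor for the guidance cue SLIT, was higher by 3.48 ± 0.37 and CNTNAP2 and NRCAM by 2.73 ± 0.23 and 2.01 ± 0.32, while PCDH18 and PCDHB2 were at -2.67 ± 0.32 and -2.27 ± 0.29. PCDHB2 belongs to a cluster of near-identical genes that 1 probe set may not separate. Surface markers used to describe mesenchymal or tumor-initiating cells had 7 higher and 5 lower of 22 tested (24 listed, median -0.11). PROM1, which encodes CD133, had 7.61, 7.13, 7.40, 7.55 and 7.27 in 143B_Low and 3.10, 3.11, 3.18 and 3.01 in MNNG_Low and was higher by 4.29 ± 0.18 (adjusted p = 4.13e-12). All 4 MNNG_Low tumors were near background and all 5 143B_Low tumors were above 5.36. CD24 was higher by 2.37 ± 0.27 and the adhesion molecule ICAM1 by 1.14 ± 0.16, while CD109, CD248 (endosialin) and NT5E (CD73) were at -1.63 ± 0.21, -1.06 ± 0.13 and -0.88 ± 0.19. The probe sets of NT5E ran from -0.88 to 0.26.

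Genes of DNA replication had 10 higher and 0 lower of 28 tested (28 listed, median 0.36). CDC6, which loads the replicative helicase, had 7.87, 7.99, 8.004, 8.04 and 7.86 in 143B_Low and 6.79, 6.89, 7.03 and 6.61 in MNNG_Low, higher by 1.12 ± 0.12 (adjusted p = 1.01e-06). The helicase subunit genes MCM3 and MCM2 were higher by 1.08 ± 0.12 and 1.03 ± 0.14, FEN1, which processes Okazaki fragments, by 0.97 ± 0.13 and RFC4, a clamp loader subunit, by 0.90 ± 0.12. Against MNNG-1231 alone 5 were higher and 0 lower, and with only the 9 Low arrays in the fit 15 were higher and 1 lower. Without MNNG-1232 there were 6 higher and 0 lower. Mitosis genes had 3 higher and 2 lower of 28 tested (28 listed, median 0.05), a share of 17.9% called beside 28.8% of all genes. CENPF, AURKB and BUB1 were higher by 0.98 ± 0.26, 0.52 ± 0.15 and 0.43 ± 0.14, and BIRC5 (survivin) and KIF20A were at -1.42 ± 0.25 and -0.46 ± 0.16. Without 143B-1251, 143B-1252, 143B-1254 or MNNG-1235 in turn, 2 were higher and 1 lower. BUB1 lost its call without any one of 143B-1251, 143B-1252, 143B-1253, 143B-1254, MNNG-1232 and MNNG-1235 (highest adjusted p = 0.121). KIF20A lost it without any one Low array other than 143B-1253 and MNNG-1232 (highest adjusted p = 0.127). Cyclins, their inhibitors and RB genes were called in 31.2% of 16 tested, near the 28.8% of all genes. There were 4 higher and 1 lower (18 listed, median 0.13). After CCND2 these were CCNE1 and CCNE2, the cyclins of S phase entry, higher by 0.77 ± 0.14 and 0.75 ± 0.20, E2F2 by 0.54 ± 0.13, and RBL2, a relative of RB, at -0.76 ± 0.12.

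Enzymes of thymidine and nucleotide metabolism had 5 higher and 3 lower of 21 tested (23 listed, median 0.21). While TK1 of the salvage route was lower, RRM1, the large subunit of ribonucleotide reductase, which makes deoxynucleotides, was higher by 1.13 ± 0.14 and UMPS, of pyrimidine synthesis, by 1.10 ± 0.13. The nucleoside transporter gene SLC29A2 and the nucleotidase gene NT5C3A were higher by 1.04 ± 0.17 and 0.85 ± 0.16. Target genes of p53 had 6 higher and 2 lower of 19 tested (23 listed, median 0.26). FAS, a death receptor, was higher by 2.07 ± 0.17, the growth arrest gene GADD45A by 1.08 ± 0.27, AEN by 0.88 ± 0.17, DDB2 by 0.64 ± 0.13 and PLK3 by 0.68 ± 0.18, with PHLDA3 at -0.72 ± 0.17. In the BCL2 family and apoptosis list 4 were higher and 2 lower of 20 tested (23 listed, median 0.00). That share of 30% called lay near the 28.8% of all genes. BCL2A1, named above, had 7.63, 8.56, 8.50, 8.10 and 8.91 in 143B_Low and 3.25, 3.46, 3.49 and 3.50 in MNNG_Low. The other calls were smaller, with BMF, BCL2L1 and BIRC2 higher by 0.66 ± 0.19, 0.50 ± 0.15 and 0.46 ± 0.15 and CASP9 and BAD at -0.49 ± 0.11 and -0.28 ± 0.10. Without MNNG-1235 the list had 2 higher and 1 lower, and BMF was not called (adjusted p = 0.0515). BCL2L1 was not called without MNNG-1233 (adjusted p = 0.0584), BIRC2 without 143B-1252, MNNG-1231, MNNG-1232 or MNNG-1235 (highest adjusted p = 0.0939), and BAD without any one Low array other than 143B-1255 (highest adjusted p = 0.128).

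Genes of antigen presentation on class I molecules had 8 higher and 0 lower of 17 tested (22 listed, median 0.30). PSMB9, a catalytic subunit of the immunoproteasome, which cuts peptides for display, had 8.28, 8.83, 8.60, 8.72 and 8.75 in 143B_Low and 6.02, 5.39, 5.90 and 5.19 in MNNG_Low, higher by 3.01 ± 0.24 (adjusted p = 1.88e-08). TAP1, a subunit of the pump that carries peptides into the endoplasmic reticulum, had 8.51, 8.33, 8.32, 8.45 and 8.69 in 143B_Low and 7.14, 7.23, 7.41 and 7.20 in MNNG_Low, higher by 1.22 ± 0.14 (adjusted p = 1.93e-06). PSMB8, TAP2, HLA-B and the peptide-trimming enzyme gene ERAP1 were higher by 1.31 ± 0.14, 1.04 ± 0.13, 1.36 ± 0.20 and 1.13 ± 0.17. HLA genes share much of their sequence, so the value of HLA-B may include its relatives. With probe sets of the types _x_at and _s_at left out 3 members were higher and 0 lower, and the median of the list was -0.006. TAP1 and PSMB9 are read on opposite strands from starts 488 bases apart. The 250 bases before the PSMB9 start, which lie in that interval, are shown with both GC boxes (GGGCGG, searched with its complement CCGCCC) in capitals (RefSeq, GRCh38.p14, chr6:32853942-32854191, plus strand). A GC box occurred in 42.3% of all promoters in the table and in 64.0% of those of tested genes.
PSMB9: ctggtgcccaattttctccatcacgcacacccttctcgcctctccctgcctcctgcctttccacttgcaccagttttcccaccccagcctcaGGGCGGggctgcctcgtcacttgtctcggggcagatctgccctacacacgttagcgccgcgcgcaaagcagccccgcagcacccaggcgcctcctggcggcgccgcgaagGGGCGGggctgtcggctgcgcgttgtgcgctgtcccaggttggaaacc

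Interferon-stimulated genes had 3 higher and 10 lower of 24 tested (32 listed, median -0.20). IFI44 had 4.07, 3.73, 4.90, 4.42 and 3.87 in 143B_Low and 7.57, 6.82, 7.88 and 6.74 in MNNG_Low, a difference of -3.06 ± 0.27 (adjusted p = 1.01e-07). The guanylate-binding proteins GBP2 and GBP1 were at -2.32 ± 0.30 and -1.48 ± 0.23 and the antiviral membrane protein IFITM1 at -2.16 ± 0.33. ISG20, an RNA exonuclease, and OAS3, which activates RNase L, were higher by 2.39 ± 0.26 and 0.92 ± 0.13. The called members of this list and of the antigen presentation list thus lay mostly on opposite sides.

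Developmental regulators were described in 3 lists. HOX genes, which give cells their position along the body axis and limb, had 6 higher and 1 lower of 23 tested (38 listed, median 0.22), a share of 30.4% called beside 28.8% of all genes. There were 8 higher and 3 lower both with only the 9 Low arrays in the fit and with array weights, 3 higher and 1 lower with the types _x_at and _s_at left out, and 3 higher and 0 lower against MNNG-1231 alone. HOXB8 had 8.37, 8.31, 8.23, 8.66 and 8.27 in 143B_Low and 5.60, 6.05, 5.05 and 5.9998 in MNNG_Low and was higher by 2.69 ± 0.21 (adjusted p = 2.04e-08). HOXD13, HOXD10, HOXC13 and HOXB6 were higher by 1.88 ± 0.18, 1.72 ± 0.18, 0.88 ± 0.17 and 0.46 ± 0.16, and HOXB2 was at -0.46 ± 0.10. HOXB6 lost its call without any one Low array other than 143B-1251, MNNG-1231 and MNNG-1232 (highest adjusted p = 0.145). Pluripotency and self-renewal factors had 7 higher and 3 lower of 20 tested (26 listed, median 0.34). LIN28B, which blocks maturation of let-7 microRNAs, had 8.45, 8.34, 8.18, 8.34 and 7.86 in 143B_Low and 5.84, 4.71, 3.90 and 4.94 in MNNG_Low and was higher by 3.39 ± 0.34 (adjusted p = 3.77e-07). HMGA2, a chromatin protein and let-7 target, was higher by 1.23 ± 0.19, SOX2 by 1.38 ± 0.28, GATA6 by 1.92 ± 0.32, LMO2 by 1.41 ± 0.16 and TBX15 by 1.40 ± 0.15. The 3 members called lower, down to -1.03, were not among the members of smallest p named here. Imprinted genes, which are read from 1 parental copy, had 3 higher and 4 lower of 13 tested (21 listed, median -0.12). MEST and DIRAS3 were at -3.57 ± 0.37 and -3.09 ± 0.22. CDKN1C, an inhibitor of cyclin-dependent kinases, and KCNQ1OT1, the noncoding RNA of the same imprinted domain, were both higher, by 1.82 ± 0.18 and 1.08 ± 0.32. The neighbors PEG10 and SGCE were both lower, at -0.98 ± 0.20 and -0.76 ± 0.19.

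Targets and partners of YAP and TEAD, which respond to cell contact and tension, had 9 higher and 2 lower of 17 tested (18 listed, median 0.48). AMOTL2 and AMOTL1, angiomotins that bind YAP, were higher by 1.37 ± 0.27 and 0.76 ± 0.18, the phosphatase PTPN14 by 1.01 ± 0.17, CRIM1 by 1.08 ± 0.23 and ANKRD1 by 1.32 ± 0.24. Against MNNG-1231 alone 2 were higher and 0 lower.

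In each of 4 metabolic lists below more members were called lower than higher, by 1 gene for NRF2 targets and glutathione genes. Metabolic lists did not all share this direction. Nucleotide enzymes, described above, had 5 higher and 3 lower. Amino acid and one-carbon genes had 5 higher and 3 lower of 25 tested, and aldehyde dehydrogenases 3 higher and 1 lower of 15. Cholesterol synthesis genes had 3 higher and 4 lower of 18. The shares called of these last 3 lists were 32%, 26.7% and 38.9%, beside 28.8% of all genes. Metallothioneins, small proteins that bind zinc and copper, had 0 higher and 6 lower of 9 tested (11 listed, median -0.49). MT1G had 10.86, 11.15, 11.14, 10.76 and 11.48 in 143B_Low and 12.18, 12.15, 11.86 and 11.71 in MNNG_Low, a difference of -0.90 ± 0.16 (adjusted p = 0.000261), and MT1F, MT1X, MT1H, MT2A and MT1E were at -0.60 ± 0.17, -0.55 ± 0.15, -0.53 ± 0.13, -0.49 ± 0.12 and -0.40 ± 0.14. Their sequences are so alike that the probe sets may read several of them, and 0 were called with the types _x_at and _s_at left out (limma) and 1, lower, against MNNG-1231 alone. MT1E lost its call without any one Low array other than 143B-1252, 143B-1255 and MNNG-1235 (highest adjusted p = 0.113). Hypoxia and glycolysis genes had 2 higher and 10 lower of 30 tested (32 listed, median -0.13). EGLN3, an oxygen-sensing prolyl hydroxylase, was at -1.73 ± 0.21, NDRG1 at -1.09 ± 0.23, the glucose transporter SLC2A3 at -0.99952 ± 0.19 and ALDOC at -0.56 ± 0.10, while VLDLR and ADM were higher by 2.51 ± 0.22 and 0.99 ± 0.21. There were 1 higher and 5 lower with the types _x_at and _s_at left out, and 1 higher and 2 lower against MNNG-1231 alone. Oxidative phosphorylation subunits had 1 higher and 6 lower of 29 tested (32 listed, median -0.17), a share near that of all genes. UQCRB, ATP5PO, ATP5F1C, COX5B and SDHC were at -0.88 ± 0.23, -0.69 ± 0.23, -0.66 ± 0.13, -0.46 ± 0.12 and -0.41 ± 0.12, and SDHA was higher by 0.55 ± 0.10. There were 3 higher and 2 lower with the GAPDH RNA quality measure as a covariate, where UQCRB, ATP5PO and SDHC lost their calls (adjusted p = 0.0784, 0.29 and 0.127), and 1 higher and 3 lower after a second quantile normalization, where ATP5PO and SDHC lost theirs (adjusted p = 0.0523 and 0.0666). With the mean over probe sets ATP5PO and SDHC were not called either (adjusted p = 0.35 and 0.112), and SDHC was at -0.0094 with the types _x_at and _s_at left out. There were 3 higher and 13 lower with only the 9 Low arrays in the fit, and 2 higher and 12 lower without the lung arrays. ATP5PO lost its call without 143B-1251, 143B-1252, 143B-1254, MNNG-1231 or MNNG-1233 (highest adjusted p = 0.0872). COX5B was at 0.31 with the types _x_at and _s_at left out. Targets of NRF2 and glutathione genes had 6 higher and 7 lower of 26 tested (29 listed, median -0.14). GSTT1 and GPX3, a glutathione transferase and a secreted peroxidase, were near background in 143B_Low, at -2.58 ± 0.17 and -2.90 ± 0.28. NQO1, a quinone reductase, and ME1, malic enzyme, were at -1.42 ± 0.26 and -1.36 ± 0.16, while GSTA4 and TALDO1 were higher by 1.37 ± 0.24 and 0.83 ± 0.12. Without MNNG-1233 there were 3 higher and 5 lower.

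**Figure D3:**
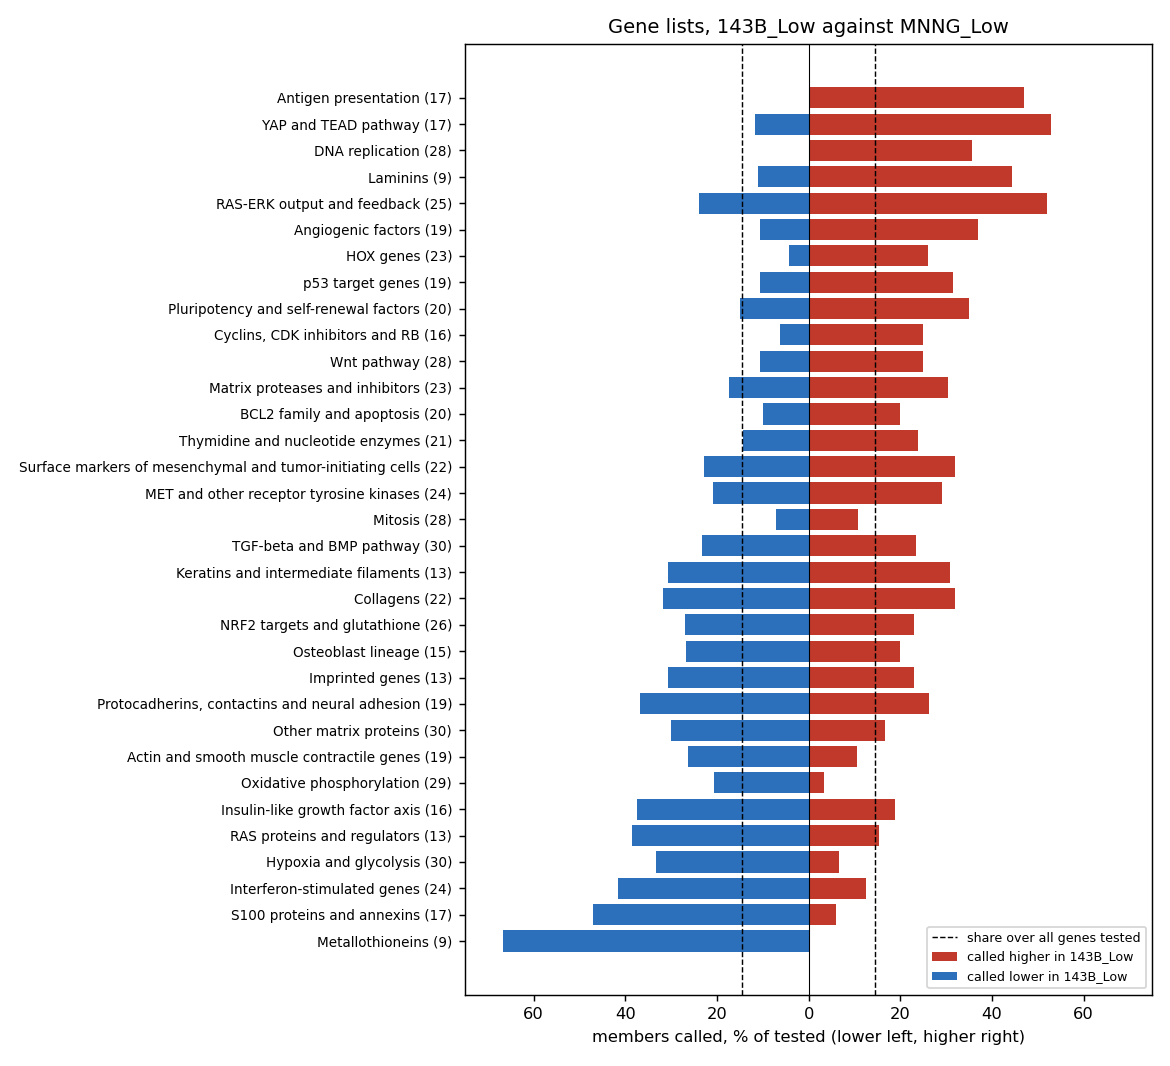
Share of tested members called higher (to the right) and lower (to the left) in 143B_Low against MNNG_Low for the 33 lists described, with the number tested in brackets. Dashed lines mark the shares over all genes tested, 14.4% higher and 14.5% lower. Metallothioneins, S100 proteins and annexins, and interferon-stimulated genes reach farthest past the line on the left, and antigen presentation and DNA replication have no bar to the left.

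The High arrays gave the same line difference on arrays that hold none of the Low arrays, though the tumors are the same. Of 14418 genes 5203 were called between 143B_High and MNNG_High (36.1%), 3081 higher (21.4%) and 2122 lower (14.7%). The split depended on scaling, with 1836 higher and 2079 lower after a second quantile normalization and 3421 higher and 1584 lower after median centring. Of the 1421 genes called more than 2-fold in Low cells, 1418 (99.8%) had the same sign in High cells and 1299 were called the same way there. The median over these genes of the High difference divided by the Low difference was 0.916. MMP1 differed by 9.67 ± 0.32 in High cells and 9.02 ± 0.28 in Low cells, and SCG5 by -6.05 ± 0.33 in High cells and -6.31 ± 0.29 in Low cells.

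CELF2, a splicing regulator, was the 1 gene called in the fit over all 18 arrays for a line difference that itself differed between the dye fractions (0.00694% of genes), while 1449 genes had an unadjusted p under 0.05. The High arrays came from 150000 sorted cells each and the Low arrays from 700000, so dye fraction and cell number cannot be told apart. All MNNG_High arrays share a tag with MNNG-1231 but not with the other MNNG_Low arrays, so fraction and tag can hardly be separated in MNNG/HOS. CELF2 had 9.86, 9.44, 9.20, 9.52 and 9.35 in 143B_Low and 7.90, 6.46, 7.19 and 6.80 in MNNG_Low, higher by 2.39 ± 0.27 (adjusted p = 2.01e-06). Its line difference in High cells was -0.78 ± 0.31, and the Low difference minus the High difference was 3.16 ± 0.41 (adjusted p = 0.0061). This call was lost with the mean over probe sets and with the types _x_at and _s_at left out, where 0 genes were called (limma, 1379 and 1126 genes at an unadjusted p under 0.05). With the tumor as a random block 8 genes were called for this contrast, and 234 with array weights. The next in order, CPEB4, SFTA1P, AGMAT and WIF1, were not called for it in the fit over all 18 arrays (adjusted p = 0.156, 0.156, 0.241 and 0.294). SFTA1P and AGMAT were called between the Low groups, at 2.72 ± 0.16 and -2.50 ± 0.16, and CPEB4, at 0.21 ± 0.20, was not.

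**Figure D4:**
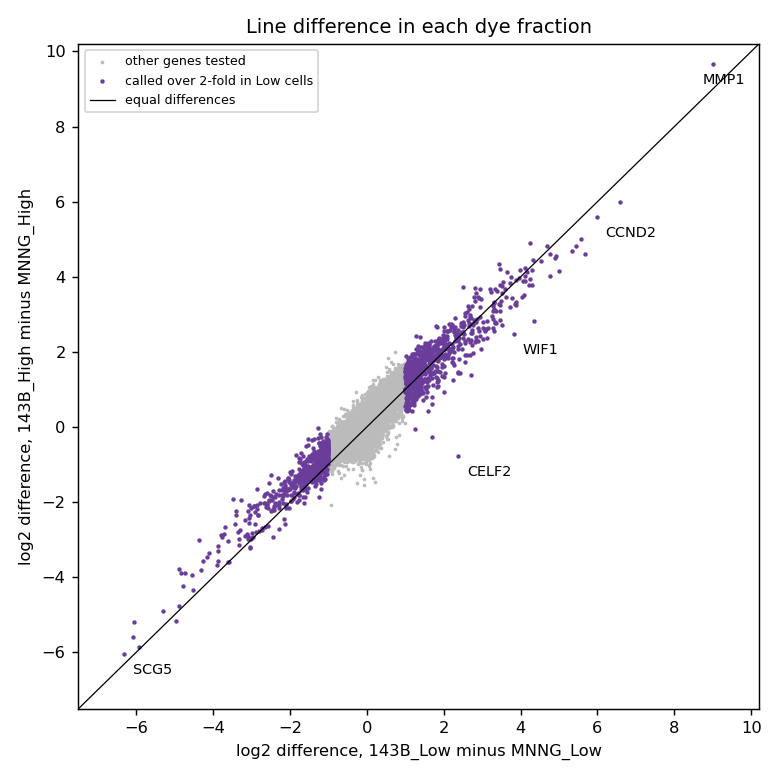
Each point is a gene tested, with the difference of 143B_Low minus MNNG_Low on the x axis and that of 143B_High minus MNNG_High on the y axis, both log2. The 1421 genes called more than 2-fold in Low cells (purple) follow the line of equal differences from SCG5 to MMP1, and CELF2 lies apart from it, below 0 on the y axis.

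The share called varied between chromosomes. The share called higher was 31.0% on chromosome 18, 28.3% on chromosome 3, 27.2% on chromosome 11 and 24.2% on chromosome 20, beside 14.4% of all genes. The share called lower was 29.9% on chromosome 8, 29.3% on chromosome 21, 22.4% on chromosome 5 and 21.5% on chromosome 17, beside 14.5% of all genes. With the tested genes put in RefSeq order and the median difference taken over every 25 neighbors, the 13830 windows ran from -1.02 to 1.36. The highest lay on chromosome 1 from PLXNA2 to TATDN3, with 21 genes called higher and 0 lower. The lowest lay on the same chromosome from C1orf21 to CAMSAP2, with 19 called lower and 2 higher. The highest and the lowest window thus lay on 1 chromosome, with other genes between them.

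Windows with a median beyond 0.5 in size were joined, by direction, where their starts lay at most 25 genes apart. This gave 31 runs of neighbors, 14 higher with 798 genes and 17 lower with 932 genes. A run can thus include windows with a median inside these bounds, and its own median can lie inside them. These runs were chosen on the Low arrays, so their Low medians are a description. On the High arrays, which did not enter that choice, the median had the same sign in 31 of 31 runs. Runs held 430 of the 1421 genes called more than 2-fold and 48 of the 225 genes named here. On chromosome 1 the run from DYRK3 to MIXL1 (89 genes, median 0.86 in Low and 0.94 in High cells) holds LAMB3, PTPN14 and CENPF. The run from LINC01686 to RNPEP on the same chromosome (50 genes, median -0.59 in Low and -0.34 in High cells, 24 called lower and 4 higher) holds TPR and HMCN1.

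Several results above share a run with their neighbors. TK1 and BIRC5 lie in a run of 44 genes on chromosome 17 from RNF157 to RNF213 with a median of -0.46, 23 called lower and 2 higher. The difference of TK1, -1.45, is larger in size than that median. MYC lies in a run of 160 genes on chromosome 8 from TERF1 to HHLA1, with a median of -0.57 and 77 called lower against 11 higher. MET lies in a run of 46 genes on chromosome 7 from DUS4L to SND1 (median -0.47), and EGFR in 1 of 41 genes on the same chromosome from CCM2 to LINC03011 (median 0.47). ETV5, IGF2BP2 and RFC4 share a run of 37 genes on chromosome 3 (ABCC5 to IL1RAP, median 0.43), CDKN1C, KCNQ1OT1, RRM1 and ADM 1 of 96 genes on chromosome 11 (C11orf21 to RASSF10, median 0.52), and EPB41L3 and LAMA1 1 of 39 genes on chromosome 18 (CETN1 to PIEZO2, median 0.44). Members can also oppose their run, as CCNE2 and TNFRSF11B did, higher by 0.75 ± 0.20 and 2.96 ± 0.57 within the run of MYC. DNA was not measured, and no cause of these runs was tested.

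**Figure D5:**
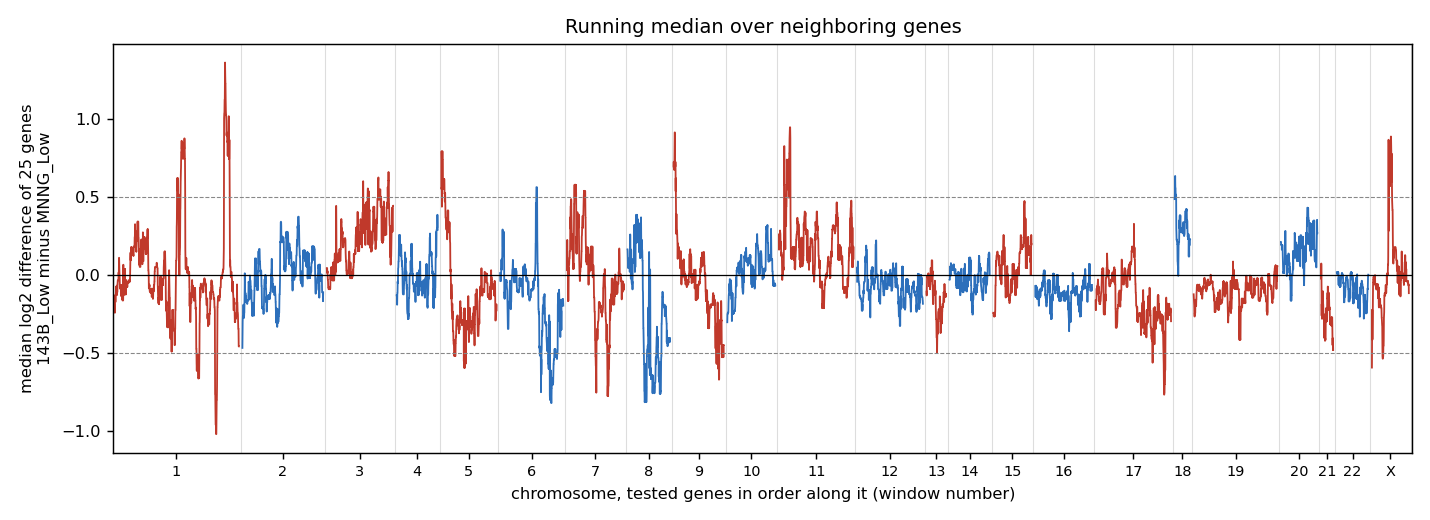
Median log2 difference of 143B_Low minus MNNG_Low over 25 neighboring tested genes, for each window in order along chromosomes 1 to 22 and X, with dashed lines at 0.5 above and below 0. The windows beyond these bounds fall in 31 runs, within which the line can return inside the bounds. It rises to 1.36 and falls to -1.02 within chromosome 1 and stays below 0 along much of chromosomes 6 and 8.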

How the data were processed

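The authors deposited log2 signals per probe set from RMA, which corrects background, equalizes the array distributions and combines probes, per the submitters' processing notes. No source used here states its version or which arrays were normalized together. The table held 54675 probe sets, 41097 with 1 gene, 1801 with several and 11777 with none, and only the first were named. Each of 19775 genes took its probe set with the highest mean over the 18 arrays, and the 14418 genes reaching 5.36 on at least 3 arrays were tested. Of the genes 19735 were found in a RefSeq table of GRCh38.p14, used for chromosome and order. That table and the promoter table gave no other values.

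One limma 3.58.1 fit in R 4.3.3 estimated 5 group means over all 18 arrays, tested on simulated data first. Differences were taken between the Low groups, between the High groups, and between these 2 differences. Array measures had exact permutation tests, two-sided. The alternatives concerned the arrays in the fit, filter, scaling, probe set, weights, tag, tumor block, RNA quality and single arrays.

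The 15 largest increases and decreases without overlap were named, with up to 6 called members of smallest p from each of 33 described lists out of 44, genes tied to the origin of the lines, and 5 genes of smallest p for the difference between fractions. A pair of origin genes was not analysed here. The members, lists and rule were chosen with earlier results of these data known. Of 107 named genes with over 1 probe set past the filter value, 7 had probe sets of both signs (COL27A1, COX5B, EGFR, HMGA2, KSR1, NT5E and PLK3). Depth has no meaning on arrays, and the number of tumors limits the precision.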

Additional observations from a re-analysis of the deposited data

Results flagged for a closer look

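The line difference of CELF2 in Low cells minus that in High cells was 3.16 (limma interaction contrast), the 1 such difference called in the fit over all 18 arrays. With the tumor as a random block 8 were called and with array weights 234. Its dependence on the probe set and the limits from tag and cell number are given above.

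Among the named genes, 25 of 450 groups (5.56%) held an array set apart from the rest by Dixon's test, where chance gives about 1 in 20, and 7 of the 25 were on array MNNG-1235. There COL1A2 was at 7.53 against 8.82 to 9.02 on the other MNNG_Low arrays, SPP1 at 6.78 against 4.84 to 5.08, MMP10 at 5.795 against 4.18 to 4.39, TGM2 at 5.73, CNN1 at 5.61, DIRAS3 at 7.85 and MAP2K1 at 9.52. On MNNG-1231 BMP2 was at 4.83 and TALDO1 at 11.07, on MNNG-1232 TIMP1 at 12.0, and on MNNG-1233 MBNL3 at 6.08, FZD2 at 7.66 and ME1 at 9.99. The groups of these genes did not overlap with 143B_Low.

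In 143B_Low, LXN was at 3.73 and OAS3 at 6.86 on 143B-1251, and GINS2 at 9.61 and ANKRD1 at 6.27 on 143B-1252. On 143B-1253 FBN2 was at 9.07, LAMB3 at 8.10, S100A3 at 6.95 and FZD2 at 8.06. On 143B-1254 KRT19 was at 3.86, and on 143B-1255 EGFR was at 9.30, MYL9 at 7.08 and ANGPT2 at 8.27. Of these genes only GINS2, the replication helicase subunit gene, overlapped with MNNG_Low.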

How the results depend on the processing

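The 1421 genes called more than 2-fold numbered 1005 to 1484 under the alternatives tried, and 1391 to 1459 without any one Low array. All genes called between the Low groups numbered 4158, and 3445 to 3768 without any one Low array. They were 6529 with only the 9 Low arrays in the fit, 5361 without the lung arrays and 7024 with array weights. Fewer were called after a second quantile normalization, 3199, and with the GAPDH covariate, 3649. With _x_at and _s_at left out they were 3241 of 11412 genes tested. Against MNNG-1231 alone, the MNNG_Low array of its tag, they were 1414, of which 1161 differed more than 2-fold. A lone array has no spread of its own, so that of the other groups was assumed for it. Of the 225 named genes, 159 stayed on their side of the threshold there with their direction, and 7 of 33 lists stayed within 1.5 times of their count of calls. Among the named genes that an alternative tested (156 of 225 with the probe set types _x_at and _s_at left out, 210 with the mean over probe sets, 216 with the stricter filter, 224 or 225 in the rest), those called that changed direction were LAMC3 at -0.085 and COX5B at 0.31, both with _x_at and _s_at left out. A second quantile normalization ended 14 calls of named genes, RRAS, AURKB and IGF2BP1 among them, the mean over probe sets 14 (NT5E, CCNE1, E2F2 and PLK3 among them), leaving out _x_at and _s_at 8 (GINS2, ERAP1, HMGA2 and ATP5F1C among them) and the GAPDH covariate 11. SLC29A2 was lost under the first 3 of these.

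No paired analysis was possible because each tumor belongs to 1 line. With the tumor as a random replicate block over the bone tumor arrays, 5426 genes were called between the Low groups, 1440 by more than 2-fold, and no named gene lost its call. The line difference that itself differed between fractions was called for 1 gene, for 8 with that block, for 234 with array weights, and for 0 with the mean over probe sets, with the types _x_at and _s_at left out and against MNNG-1231 alone (limma, 1379, 1126 and 555 at an unadjusted p under 0.05). It was 1 without any one Low array. The High count was 3915 to 7753, and 4880 to 5033 without any one Low array. Its split of 3081 higher and 2122 lower was 3421 and 1584 after median centring and 1836 and 2079 after a second quantile normalization, which moved the median of all genes in High cells to -0.11 against 0.01. The cause of these changes was not tested. With the GAPDH RNA quality measure as a covariate 2055 were higher and 1594 lower between the Low groups. Signals near background limit sizes, and directions too where both groups lie there.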
